A study of Homo sapiens with 6 samples.

Results

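Integrin subunits, laminin chains and collagen chains were followed in DU145 cells, a human cell line of metastatic castration-resistant prostate cancer (CRPC), together with MFAP2, a protein of elastic microfibrils. The genes were chosen by symbol: every integrin α or β subunit, every laminin α, β or γ chain and every collagen chain in the deposited table, with MFAP2 added by name. Of 27381 genes in the table, 83 met this rule, namely 26 integrins, 12 laminins, 44 collagens and MFAP2. The 38 with at least 1 FPKM in at least 1 column are described here, out of 12822 genes that reached this level. They were 13 integrins, 9 laminins, 15 collagens and MFAP2. The other 45 stayed under 1 FPKM in every column, and 8 of them were listed at 0 throughout.

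The study asked how loss of CD24, a surface glycoprotein, and of RCC2, a regulator of chromosome condensation, alters DU145 cells. RNA came from 6 libraries, 2 each from cells given a scrambled sgRNA without a target (Scr), cells with CD24 knocked out (CD24 KO) and cells with RCC2 knocked out (RCC2 KO). All were made with Cas9 and grown from sorted, GFP-positive clones. For each knockout 2 clones were made, but which clone gave which library is not stated, so genotype and clone cannot be told apart. The values are FPKM, in which sequenced fragments are divided by transcript length and by library size, so levels of different genes can be compared per length. The table holds 1 value per gene and condition. Its column headers are sample codes that name neither gene nor knockout. Each was matched to a condition by the stem it shares with the descriptions of the libraries. Below, a column is called labelled by this match. The column labelled RCC2 KO may hold 1 library or both. No SD between libraries and no test could therefore be given for any value below, and no difference has a replicate check. Differences are between columns on the scale of log2(FPKM + 1), which understates the change of genes with low values, and a gene at least 2-fold apart was counted in place of a test. The table gives no counts, and the depth of the libraries stays unknown. In bulk RNA, fewer cells of a type and less RNA per cell cannot be told apart.

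RNA levels of the targeted genes did not follow the labels. CD24 stood at 93.2 FPKM in Scr, at 308.9 FPKM in the column labelled CD24 KO and at 214 FPKM in the column labelled RCC2 KO. RCC2 had 37.8 FPKM in Scr, against 14.2 FPKM in the column labelled CD24 KO and 41.8 FPKM in the column labelled RCC2 KO. Neither RNA was lower than in Scr in the column matched to its own knockout. Every direction below rests on that match and on the library labels as given. By the methods, knockout clones were picked by sequencing of their genomic DNA and by Western blot for the protein, neither of which is RNA. The epithelial markers EPCAM, KRT8, KRT18, KRT19 and CDH1 were all above 1 FPKM in every column, with sums of 799 FPKM in Scr, 499.8 FPKM in the column labelled CD24 KO and 843 FPKM in the column labelled RCC2 KO. The lower sum in the column labelled CD24 KO came from KRT8, KRT18 and EPCAM, with differences from Scr of -1.17, -1.05 and -0.38, whereas CDH1 and KRT19 were above Scr there, at 0.89 and 0.43. The luminal markers KLK2 and KLK3 were listed at 0 in every column. None of 6 fibroblast, 4 endothelial or 5 leukocyte markers reached 1 FPKM, and the fibroblast markers summed to at most 0.235 FPKM. A 0 in this table is only a listing: RNR2, the large mitochondrial ribosomal RNA, was listed at 0 in the column labelled CD24 KO and at 26884 FPKM in Scr.

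Integrins are receptors made of one α and one β subunit that bind matrix proteins outside the cell and connect to actin or keratin filaments inside it. Laminins are cross-shaped trimers of an α, a β and a γ chain, and with type IV collagen they form the sheets of the basement membrane on which epithelial cells rest. In normal prostate the basal cells hold on to this membrane, and prostate tumours are known for losing several of these receptors and laminin chains.

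Promoter sequences are shown for the members on which the descriptions below turn: MFAP2, which differed most between columns, LAMA3, whose transcript variants begin at separate start sites, and the type IV collagen genes, which lie head to head in pairs. The windows are from RefSeq on GRCh38.p14 and are 300 bases long, most of them upstream of a start site. Of the 38 members, 27 had a window, 38 windows in all. Motifs were searched on both strands by their letters, namely GGGCGG for the GC box, CCAAT for the CCAAT box and TGAGTCA for the AP-1 motif, and matches of different motifs may share letters at their ends. The GC box was in 45.0% of all 35116 RefSeq windows and in a window of 20 of the 27 members. CCAAT was in 34.6% of all windows and in those of 6 members, and TGAGTCA in 4.95% of all windows and in those of 4 members, namely ITGA5, LAMA3, LAMB3 and MFAP2. A member with several windows counted once, whereas the shares of all windows count each window. A match is a description of letters and not a binding site.

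The 2 windows of MFAP2 are chr1:16981534-16981833 and chr1:16980571-16980870, both on the minus strand, and capitals mark the AP-1 motif in the first and the GC boxes in the second. The AP-1 letters lie 60 bases before the start site, and the second window holds 4 GC boxes with 76.7% G or C. The LAMA3 window is chr18:23872770-23873069 on the plus strand, with capitals for the AP-1 letters 69 and 125 bases before the start site. That start site lies 184 kb inside the gene as GENCODE 29 draws it, so it serves a shorter transcript. For the type IV collagen pairs, the stretch common to the windows of both genes is printed on the plus strand, with CCAAT and GC boxes in capitals. The stretches are chr13:110307108-110307333 for COL4A1 and COL4A2, chr2:227164374-227164455 for COL4A3 and COL4A4, and chrX:108439588-108439708 for COL4A5 and COL4A6.
MFAP2 window 1: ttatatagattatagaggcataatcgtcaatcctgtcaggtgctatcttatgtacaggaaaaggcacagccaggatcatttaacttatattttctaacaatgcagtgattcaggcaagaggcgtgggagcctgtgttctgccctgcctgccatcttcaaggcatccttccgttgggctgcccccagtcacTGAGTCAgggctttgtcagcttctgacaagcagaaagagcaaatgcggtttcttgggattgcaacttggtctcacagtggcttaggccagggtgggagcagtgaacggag
MFAP2 window 2: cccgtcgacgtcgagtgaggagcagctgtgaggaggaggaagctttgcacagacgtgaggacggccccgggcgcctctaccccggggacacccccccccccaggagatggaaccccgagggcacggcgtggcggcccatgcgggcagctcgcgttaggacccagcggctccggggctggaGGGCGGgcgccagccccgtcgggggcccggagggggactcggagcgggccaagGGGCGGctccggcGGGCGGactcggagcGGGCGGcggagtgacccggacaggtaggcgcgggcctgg
LAMA3: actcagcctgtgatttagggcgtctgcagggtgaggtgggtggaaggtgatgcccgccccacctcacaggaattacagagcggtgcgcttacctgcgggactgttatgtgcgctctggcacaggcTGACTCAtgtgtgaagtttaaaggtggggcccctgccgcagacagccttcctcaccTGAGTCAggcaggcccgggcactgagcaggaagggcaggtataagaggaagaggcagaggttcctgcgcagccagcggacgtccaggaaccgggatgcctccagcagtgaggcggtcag
COL4A2-COL4A1 shared: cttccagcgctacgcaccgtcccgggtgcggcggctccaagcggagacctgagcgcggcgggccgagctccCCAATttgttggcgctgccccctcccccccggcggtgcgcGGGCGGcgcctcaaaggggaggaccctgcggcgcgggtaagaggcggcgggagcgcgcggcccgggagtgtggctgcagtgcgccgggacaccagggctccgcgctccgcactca
COL4A3-COL4A4 shared: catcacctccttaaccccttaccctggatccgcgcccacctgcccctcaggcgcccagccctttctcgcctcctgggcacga
COL4A5-COL4A6 shared: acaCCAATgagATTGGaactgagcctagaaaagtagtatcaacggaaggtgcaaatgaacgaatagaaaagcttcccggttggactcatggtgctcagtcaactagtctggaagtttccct

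The starts of COL4A1 and COL4A2 lie 126 bases apart, and their common stretch holds 1 CCAAT box and 1 GC box. The starts of COL4A3 and COL4A4 lie 418 bases apart and those of COL4A5 and COL4A6 lie 379 bases apart. The stretch of COL4A3 and COL4A4 held none of these letters, and that of COL4A5 and COL4A6 held CCAAT once on each strand.

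Of the 38 members, COL4A5, ITGB4 and MFAP2 were at least 2-fold above Scr in the column labelled CD24 KO, 3 members or 7.89%, against 2.67% of all genes compared. ITGB5 and LAMA1 were at least 2-fold below Scr, 2 members or 5.26%, against 3.03% of all genes. MFAP2 was added with its value known, and COL4A5 was listed at 0 in Scr. Without these, 1 of 36 members was at least 2-fold higher. With a pseudocount of 5 in place of 1, MFAP2 and LAMA1 stayed past the minimum, and ITGB4, ITGB5 and COL4A5 did not. At a minimum of 1.5-fold, chosen as an alternative, 8 of the 38 members were higher, against 9.55% of all genes, and 5 were lower, against 11.6%. Without MFAP2 and COL4A5, 6 of 36 were higher and 5 lower. The members that the 1.5-fold minimum added were COL4A1, COL4A2, ITGA1, ITGB3 and LAMA3 on the higher side and COL18A1, COL21A1 and LAMB1 on the lower. The median difference of the 38 members was -0.05, beside -0.03 over all genes compared. By family it was 0.10 for integrins, -0.17 for laminins and -0.04 for collagens. Members were thus spread to both sides, 18 above and 20 below 0.

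In the column labelled RCC2 KO, no member was at least 2-fold higher or lower than Scr, where 0.406% and 0.796% of all genes were. The median difference was -0.17, with 12 members above and 25 below 0, beside a median of -0.0036 over all genes. It was -0.23 for integrins, -0.20 for laminins and -0.15 for collagens. At the minimum of 1.5-fold, 2 of the 38 members, ITGB5 and LAMA1, were lower, against 3.82% of all genes, and none was higher, against 1.45%. Both knockouts were compared with the same Scr column, so their differences from it are not independent.

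**Figure D1:**
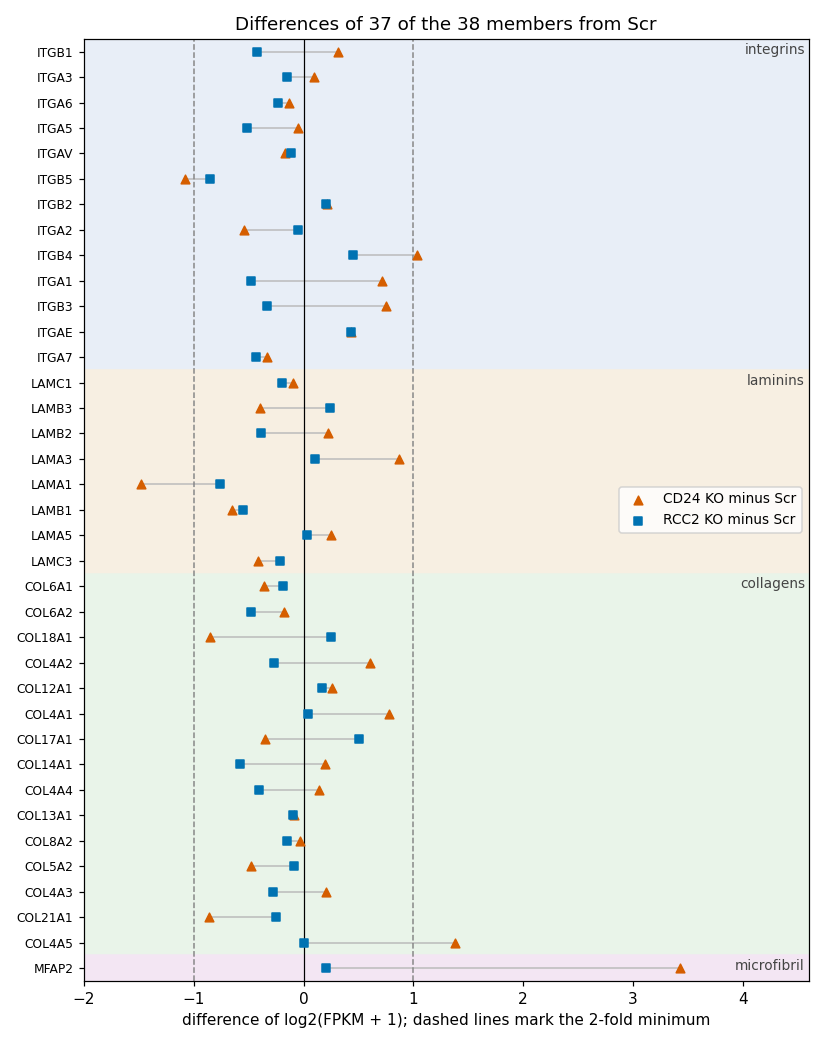
Difference from Scr on the scale of log2(FPKM + 1) for 37 of the 38 members (rows, grouped by family), with triangles for the column labelled CD24 KO, squares for the column labelled RCC2 KO and 1 deposited value per condition. MFAP2 at 3.43, COL4A5 and ITGB4 lie to the right of the dashed 2-fold line and LAMA1 at -1.48 and ITGB5 at -1.08 to the left of it, all as triangles, while every square lies between the lines.

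The integrins were dominated by ITGB1, the β subunit shared by most matrix-binding integrins. It measured 818 FPKM in the Scr column, 1019.9 FPKM in the one labelled CD24 KO and 609 FPKM in the one labelled RCC2 KO. In Scr it exceeded 99.7% of the genes compared and made up 69.6% of the summed FPKM of all integrins. Its difference from Scr was 0.32 in the column labelled CD24 KO and -0.42 in the column labelled RCC2 KO, so that the knockout columns stood 1.67-fold apart. Under quantile normalization the difference in the column labelled CD24 KO was 0.71, and that between the knockout columns was -1.11, past the 2-fold minimum. Summed over all integrins in the table, the level was 1176 FPKM in Scr, 1379 FPKM in the column labelled CD24 KO and 920.5 FPKM in the column labelled RCC2 KO. These were 0.261%, 0.355% and 0.206% of all FPKM in the same columns, whose totals were 451272, 388764 and 447005 FPKM. The totals include RNR2, at 26884 FPKM in Scr and 22704 FPKM in the column labelled RCC2 KO. It was listed at 0 in the column labelled CD24 KO, which raises the shares of that column beside the others.

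The α subunits that bind laminin came next. ITGA3 stood at 194 FPKM in Scr, at 208 FPKM in the column labelled CD24 KO and at 175 FPKM in the column labelled RCC2 KO, and it held 63.0% of the summed α-subunit FPKM in Scr. ITGA6 had 42.8 FPKM in Scr, against 39.0 FPKM in the column labelled CD24 KO and 36.3 FPKM in the column labelled RCC2 KO. Differences from Scr were at most 0.10 above and -0.23 below for this pair. ITGB4, which pairs with ITGA6 in the hemidesmosome and links it to keratin, measured 6.61 FPKM in the Scr column, 14.6 FPKM in the one labelled CD24 KO and 9.40 FPKM in the one labelled RCC2 KO. It was 2.21-fold higher in FPKM in the column labelled CD24 KO, with a difference of 1.04, and stood at 0.45 in the column labelled RCC2 KO. The level of ITGB4 was 0.154 times that of ITGA6 in Scr, 0.374 times in the column labelled CD24 KO and 0.259 times in the column labelled RCC2 KO, so ITGB4 was the scarcer subunit of the pair in every column.

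The β subunits that join ITGAV, the α subunit of receptors for vitronectin and fibronectin, differed from Scr in opposite directions in the column labelled CD24 KO. ITGB5 stood at 27.8 FPKM in Scr, at 12.6 FPKM in the column labelled CD24 KO and at 15.0 FPKM in the column labelled RCC2 KO. It was 2.20-fold and 1.86-fold lower in FPKM than in Scr, with differences of -1.08 and -0.85. ITGB3, known for binding vitronectin and fibrinogen, had 1.68 FPKM in Scr, against 3.51 FPKM in the column labelled CD24 KO and 1.12 FPKM in the column labelled RCC2 KO. Its difference was 0.75 in the column labelled CD24 KO and -0.33 in the column labelled RCC2 KO. ITGAV itself measured 21.5 FPKM in the Scr column, 19.0 FPKM in the one labelled CD24 KO and 19.8 FPKM in the one labelled RCC2 KO. Leaving out ITGB1, ITGB5 held 93.5% of the FPKM of the β partners of ITGAV in Scr, 76.2% in the column labelled CD24 KO and 92.0% in the column labelled RCC2 KO. The share of ITGB3 was 5.63% in Scr, 21.2% in the column labelled CD24 KO and 6.90% in the column labelled RCC2 KO. ITGB8 took 2.56% at most, and ITGB6 was under 0.04 FPKM in every column.

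Among the reported α subunits of collagen and fibronectin receptors, none was 2-fold from Scr. ITGA2, a collagen receptor of epithelial cells, stood at 16.0 FPKM in Scr, at 10.7 FPKM in the column labelled CD24 KO and at 15.4 FPKM in the column labelled RCC2 KO. ITGA5, the fibronectin receptor, had 26.4 FPKM in Scr, against 25.4 FPKM in the column labelled CD24 KO and 18.2 FPKM in the column labelled RCC2 KO. ITGA1, another collagen receptor, measured 2.80 FPKM in the Scr column, 5.23 FPKM in the one labelled CD24 KO and 1.72 FPKM in the one labelled RCC2 KO. ITGA1 thus lay on either side of Scr, with differences of 0.71 and -0.48. Its locus overlaps PELO, at 13.9 FPKM in Scr, 10.9 FPKM in the column labelled CD24 KO and 13.8 FPKM in the column labelled RCC2 KO.

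The integrins of blood cells were named after their values were seen. ITGB2, the β subunit of leukocyte integrins, stood at 13.2 FPKM in Scr, at 15.5 FPKM in the column labelled CD24 KO and at 15.4 FPKM in the column labelled RCC2 KO. Its α partners ITGAL and ITGAD were listed at 0 in every column, and ITGAM and ITGAX were at most 0.332 FPKM. Of the leukocyte markers, CD14 was the highest, at 0.993 FPKM in Scr, 0.636 FPKM in the column labelled CD24 KO and 0.268 FPKM in the column labelled RCC2 KO. The antisense gene ITGB2-AS1 overlaps ITGB2 and was at most 2.54 FPKM. ITGAE was at 1.23 FPKM in Scr and 2.01 FPKM in both knockout columns, and overlaps GSG2, at 10.8 FPKM in Scr, 5.73 FPKM in the column labelled CD24 KO and 11.1 FPKM in the column labelled RCC2 KO. ITGA7 ranged from 1.18 to 1.94 FPKM.

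**Figure D2:**
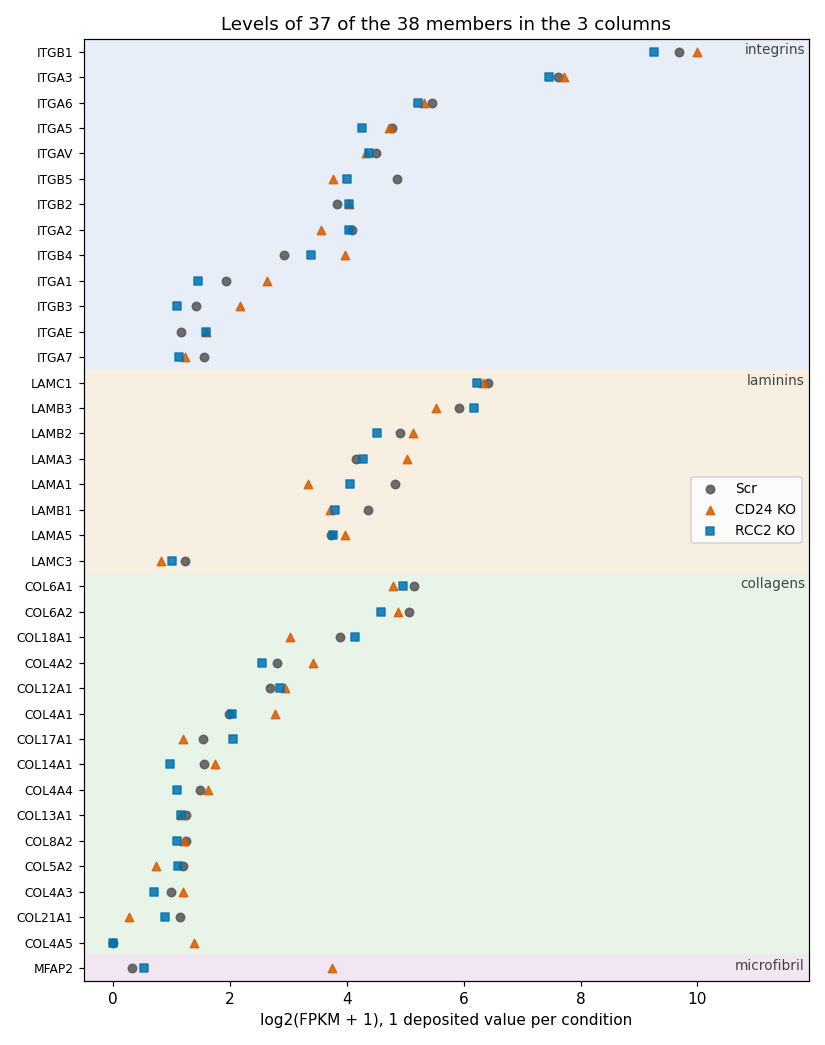
Level of 37 of the 38 members (rows, grouped by family and ordered by mean FPKM) as log2(FPKM + 1), with circles for Scr, triangles for the column labelled CD24 KO and squares for the column labelled RCC2 KO. ITGB1, at 609 to 1019.9 FPKM, stands to the right of all other members, and the collagens other than COL6A1, COL6A2 and COL18A1 lie under 10 FPKM in every column.

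Laminins summed to 276 FPKM in Scr, 249 FPKM in the column labelled CD24 KO and 255 FPKM in the column labelled RCC2 KO. As shares of all FPKM in these columns the sums were 0.0612%, 0.0641% and 0.0569%. The total of the column labelled CD24 KO lacks RNR2, so the order of these shares rests on that listing. LAMC1, the γ chain of most laminins, was the highest, at 84.7 FPKM in Scr, 79.4 FPKM in the column labelled CD24 KO and 73.7 FPKM in the column labelled RCC2 KO. The laminin α chains differed from Scr in opposite directions. LAMA1, best known from embryonic basement membranes, measured 27.3 FPKM in the Scr column, 9.14 FPKM in the one labelled CD24 KO and 15.6 FPKM in the one labelled RCC2 KO. It was 2.98-fold and 1.74-fold lower in FPKM than in Scr, with differences of -1.48 and -0.76. LAMA3, the α chain of the epithelial laminin that anchors hemidesmosomes, stood at 16.9 FPKM in Scr, at 31.8 FPKM in the column labelled CD24 KO and at 18.3 FPKM in the column labelled RCC2 KO. It was 1.88-fold higher in FPKM in the column labelled CD24 KO, with a difference of 0.87, short of the 2-fold minimum. LAMA5, the widespread α chain of adult basement membranes, ranged from 12.2 to 14.7 FPKM.

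Taking the 5 laminin α chains as a whole, LAMA1 held 48.1% of their FPKM in Scr, 16.4% in the column labelled CD24 KO and 33.5% in the column labelled RCC2 KO. LAMA3 held 29.9% in Scr, 56.9% in the column labelled CD24 KO and 39.2% in the column labelled RCC2 KO. The leading α chain was therefore LAMA1 in Scr and LAMA3 in both knockout columns. LAMA2 stayed under 0.3 FPKM and LAMA4 was listed at 0. LAMA3 was counted as 1 gene over all its start sites, so the short transcript whose promoter is printed above cannot be told apart from the long one.

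**Figure D3:**
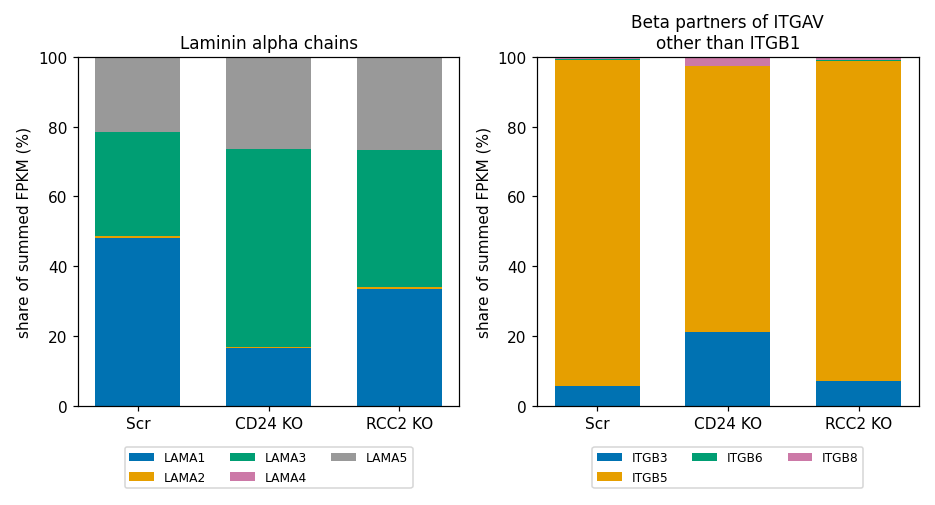
Stacked bars of the share of summed FPKM (%) in the columns labelled Scr, CD24 KO and RCC2 KO, for the laminin α chains (left) and the β partners of ITGAV other than ITGB1 (right). LAMA1 goes from 48.1% in Scr to 16.4% in the column labelled CD24 KO, where LAMA3 has 56.9%, and ITGB3 goes from 5.63% to 21.2%.

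The β chains bring in another part of the trimers. LAMB3, the β partner of LAMA3, had 59.7 FPKM in Scr, against 45.0 FPKM in the column labelled CD24 KO and 70.9 FPKM in the column labelled RCC2 KO. LAMA3 was thus above Scr in the column labelled CD24 KO, and LAMB3 was below it. LAMB1, the partner of LAMA1 and LAMC1, stood at 19.5 FPKM in Scr, at 12.0 FPKM in the column labelled CD24 KO and at 12.9 FPKM in the column labelled RCC2 KO, with differences of -0.65 and -0.55. LAMB2 had 28.9 FPKM in Scr, against 33.9 FPKM in the column labelled CD24 KO and 21.9 FPKM in the column labelled RCC2 KO. LAMC3 stayed between 0.755 and 1.34 FPKM. LAMB2P1, a pseudogene with the name of LAMB2, was at most 0.870 FPKM, and fragments could have been divided between the copies.

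Collagens were scarcer than laminins, with sums of 110 FPKM in Scr, 99.3 FPKM in the column labelled CD24 KO and 96.2 FPKM in the column labelled RCC2 KO. Their shares of all FPKM in these columns were 0.0243%, 0.0256% and 0.0215%, and their order rests on the same listing of RNR2. COL6A1 and COL6A2, chains of the beaded filaments of type VI collagen, were the highest. COL6A1 measured 34.6 FPKM in the Scr column, 26.7 FPKM in the one labelled CD24 KO and 30.2 FPKM in the one labelled RCC2 KO. COL6A2 stood at 32.3 FPKM in Scr, at 28.5 FPKM in the column labelled CD24 KO and at 22.9 FPKM in the column labelled RCC2 KO. COL6A3, their usual partner in the trimer, was listed at 0 in every column, and COL6A6 was at most 0.0224 FPKM. The fibrillar collagens of connective tissue were low: COL1A1 was at most 0.678 FPKM, and COL1A2 and COL3A1 were under 0.08 FPKM.

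COL18A1, a basement membrane collagen whose end is the source of endostatin, had 13.8 FPKM in Scr, against 7.17 FPKM in the column labelled CD24 KO and 16.6 FPKM in the column labelled RCC2 KO. It was 1.92-fold lower in FPKM than Scr in the column labelled CD24 KO, with a difference of -0.86, and 0.25 above Scr in the column labelled RCC2 KO. COL12A1, which decorates collagen fibrils, measured 5.44 FPKM in the Scr column, 6.72 FPKM in the one labelled CD24 KO and 6.24 FPKM in the one labelled RCC2 KO. COL17A1, the collagen of hemidesmosomes, was named after its values were seen: it stood at 1.90 FPKM in Scr, at 1.28 FPKM in the column labelled CD24 KO and at 3.13 FPKM in the column labelled RCC2 KO. COL17A1 and COL18A1 were thus below Scr in the column labelled CD24 KO and above it in the column labelled RCC2 KO.

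Type IV collagen, the network of the basement membrane, was described by its head-to-head pairs. COL4A1 had 2.97 FPKM in Scr, against 5.82 FPKM in the column labelled CD24 KO and 3.08 FPKM in the column labelled RCC2 KO. COL4A2 measured 5.999 FPKM in the Scr column, 9.65 FPKM in the one labelled CD24 KO and 4.82 FPKM in the one labelled RCC2 KO. Both genes of this pair, whose common promoter stretch is printed above, were highest in the column labelled CD24 KO, with differences of 0.78 and 0.61. COL4A3 stood at 0.975 FPKM in Scr, at 1.28 FPKM in the column labelled CD24 KO and at 0.632 FPKM in the column labelled RCC2 KO, within a locus that overlaps MFF at 193 to 298 FPKM. COL4A4 had 1.81 FPKM in Scr, against 2.09 FPKM in the column labelled CD24 KO and 1.12 FPKM in the column labelled RCC2 KO. Both were also highest in the column labelled CD24 KO, with differences of 0.20 and 0.14 from Scr, or 0.08 and 0.006 under quantile normalization. COL4A3 passed the filter of 1 FPKM through that column alone, as did COL4A5, so their place there was partly set by the filter. COL4A5 was at 1.61 FPKM in the column labelled CD24 KO and listed at 0 in Scr and in the column labelled RCC2 KO, so no fold is given. COL4A6, its neighbour, was listed at 0 in the same columns and at 0.0520 FPKM in the column labelled CD24 KO.

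MFAP2, which binds fibrillin in the microfibrils around elastic fibres, measured 0.252 FPKM in the Scr column, 12.5 FPKM in the one labelled CD24 KO and 0.447 FPKM in the one labelled RCC2 KO. Its difference was 3.43 in the column labelled CD24 KO and 0.21 in the column labelled RCC2 KO. The table, read as hg19, places it on chromosome 1 from 17300999 to 17308081. MFAP2 had been picked for this value, which is therefore given as a description. MFAP5, a microfibril protein of the same kind, stood at 0.152 FPKM in Scr, at 8.54 FPKM in the column labelled CD24 KO and at 0.589 FPKM in the column labelled RCC2 KO. FBN1, the fibrillin to which both bind, had 0.182 FPKM in Scr, against 1.54 FPKM in the column labelled CD24 KO and 0.170 FPKM in the column labelled RCC2 KO. MFAP3, which shares the name but is a membrane protein, ranged from 9.51 to 11.4 FPKM, and MFAP4 was at most 0.312 FPKM. Of the fibroblast markers, which mark the usual source of microfibrils, none was above 0.12 FPKM, and their sum was 0.149 FPKM in Scr, 0.235 FPKM in the column labelled CD24 KO and 0.160 FPKM in the column labelled RCC2 KO.

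**Figure D4:**
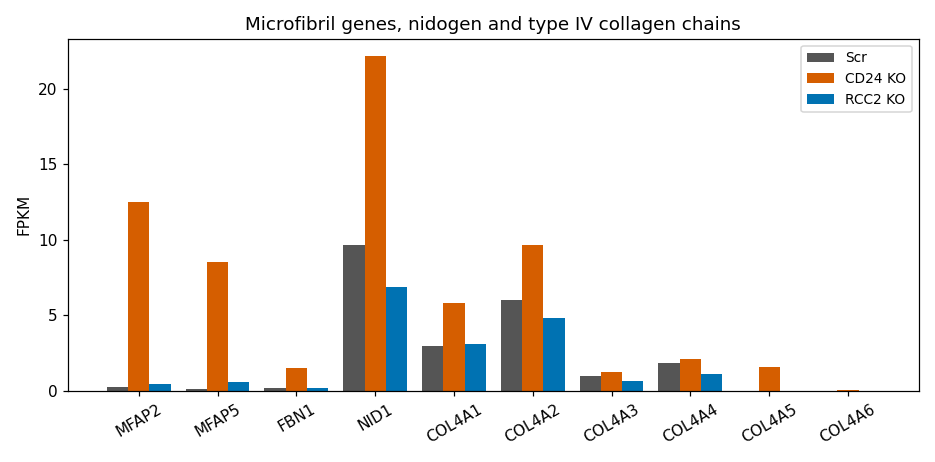
FPKM of the microfibril genes MFAP2, MFAP5 and FBN1, of NID1 and of the type IV collagen chains (bars from 0, 1 value per column, no replicates). For each gene shown, the bar of the column labelled CD24 KO is the tallest, from 22.2 FPKM for NID1 to 0.0520 FPKM for COL4A6. MFAP2, MFAP5, FBN1 and NID1 are shown because they were high in that column, so their tallest bar was set by the choice. Genes of the same lists that were lower there than in Scr are not shown.

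Genes that work with these members were taken from 5 lists, with the members themselves left out: 74 symbols, 73 of them in the table and 59 compared. In the column labelled CD24 KO, 3 were at least 2-fold higher than Scr and 3 at least 2-fold lower, 5.08% each way, against 2.67% and 3.03% of all genes. FBN1 and MFAP5, among the higher, passed the filter of 1 FPKM through that column alone. With a pseudocount of 5, NID1 (0.89), FBN1 (0.33) and FERMT1 (-0.64) were under the minimum, as were FBN1 (0.94) and CAV1 (-0.97) under quantile normalization. Of 7 basement membrane partners, NID1 was higher and none was lower. NID1, nidogen, which ties laminin to type IV collagen, measured 9.63 FPKM in the Scr column, 22.2 FPKM in the one labelled CD24 KO and 6.89 FPKM in the one labelled RCC2 KO. Of 15 matrix glycoproteins, FBN1 and MFAP5 were higher and none was lower. None of 4 hemidesmosome partners was past the minimum in either direction.

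Of 18 genes listed for focal adhesions, the sites where integrins are coupled to actin, 2 were at least 2-fold lower and none was higher. FERMT1, a kindlin that activates integrins, stood at 7.73 FPKM in Scr, at 3.19 FPKM in the column labelled CD24 KO and at 9.70 FPKM in the column labelled RCC2 KO. CAV1, the coat protein of caveolae, had 205 FPKM in Scr, against 91.3 FPKM in the column labelled CD24 KO and 288 FPKM in the column labelled RCC2 KO. Of 15 genes of collagen processing, PLOD2 was lower and none was higher. PLOD2, a lysyl hydroxylase that prepares collagen for cross-linking, measured 658 FPKM in the Scr column, 177 FPKM in the one labelled CD24 KO and 468 FPKM in the one labelled RCC2 KO. The median difference of this list was -0.27 in the column labelled CD24 KO and -0.28 in the column labelled RCC2 KO, against the same Scr values. Over all genes compared the medians were -0.03 and -0.0036. In the column labelled RCC2 KO, no partner gene in any list was 2-fold from Scr, against 0.406% of all genes higher and 0.796% lower, which is under 1 gene in 59 each way.

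Between the knockout columns, RCC2 KO minus CD24 KO, 1 member or 2.63% was at least 2-fold higher, COL18A1, against 4.02% of all genes compared. At least 2-fold lower were 4 members or 10.5%, COL4A5, ITGA1, ITGB3 and MFAP2, against 4.3%. Without MFAP2 and COL4A5, 2 of 36 were lower. The median difference of the members was -0.10, beside 0.02 over all genes. At 1.5-fold, 5 of the 38 members were higher, against 13.8% of all genes, and 11 were lower, against 14.1%. COL18A1 was 2.32-fold higher in FPKM in the column labelled RCC2 KO than in the column labelled CD24 KO. ITGA1 and ITGB3 were 3.04-fold and 3.13-fold lower in FPKM, from levels of at most 5.23 FPKM, and none of the 3 stayed past the minimum with a pseudocount of 5. Among the 59 partner genes compared, 3 or 5.08% were at least 2-fold higher in the column labelled RCC2 KO, namely FERMT1, CAV1 and PLOD2, against 4.02% of all genes. At least 2-fold lower were 8 or 13.6%, against 4.3% of all genes. Those lower genes were NID1, BCAM, BMP1, FN1, VTN, FBN1, LTBP3 and MFAP5. FBN1 and MFAP5 passed the filter of 1 FPKM through the column labelled CD24 KO alone, and BCAM was only just past the minimum, at -1.0036. BCAM, BMP1, FN1, VTN and LTBP3 were named after their values were seen. FN1, fibronectin, stood at 3.62 FPKM in Scr, at 7.83 FPKM in the column labelled CD24 KO and at 3.33 FPKM in the column labelled RCC2 KO, and BCAM, a laminin receptor, had 90.6 FPKM in Scr, against 104 FPKM in the column labelled CD24 KO and 51.4 FPKM in the column labelled RCC2 KO.

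The highest values of the members nearest the limit of 1 FPKM were 1.20 FPKM for COL21A1, 1.28 FPKM for COL4A3 and 1.30 FPKM for COL5A2 on the inside, and 0.726 FPKM for ITGA2B, 0.678 FPKM for COL1A1 and 0.656 FPKM for COL28A1 on the outside. Of the 38 members, 17 had 10 FPKM or more in every column. The loci of 16 members overlap that of another gene in the table, and for 6 of them, COL4A3, ITGA1, ITGA5, ITGA7, ITGAE and ITGB2, that gene reached 1 FPKM. Whether the estimation used strand is not stated, and fragments could have been assigned to either gene of such a pair. Beyond the genes marked above, LAMC3, ITGA7, ITGA2B, ITGB6, ITGB8, LAMA2, LAMA4, COL1A1, COL1A2, COL3A1, COL4A6, COL5A2, COL6A3, COL6A6, COL21A1, COL28A1, MFAP3, MFAP4 and the overlapping genes were named after their values were seen.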

How the data were processed

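RNA from 6 DU145 libraries was analysed from the deposited table, in which the authors gave FPKM, with 1 column per condition. Libraries were grouped by their genotype label. The labels name an RNA kit used on total RNA and the study's methods a stranded mRNA kit. The submitters' processing notes name HISAT, StringTie, Cufflinks and GATK without role or version. The build is not named. GENCODE 29 has 24864 of the symbols exactly once, and 15.8% of these lay at their GRCh38 place in the table, which was therefore read as hg19, with starts counted from 1.

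Genes with at least 1 FPKM in a column were compared as log2(FPKM + 1). The deposited FPKM values were not rescaled. The limma test planned for separate libraries could not be run on 1 value per condition. Members, partner lists (basement membrane, hemidesmosome, focal adhesion, collagen processing and matrix glycoproteins, written from memory) and marker lists were chosen with earlier results of these data known. Members were named if at least 2-fold apart in a comparison, among the top 5 of their family by mean FPKM, or a chain of an assembly with every chain at 1 FPKM or more. Partner genes were named if at least 2-fold from Scr. Exceptions are marked.

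Depth is unknown: among 2277 genes below 0.3 FPKM, the most frequent quotient of RCC2 KO and Scr was 0.673, in 60 genes (2.64%), and whole reads could not be recovered. Alternatives were pseudocounts of 0.1 and 5, other filters, quantile normalization, median centring and a 1.5-fold minimum. Calculations were tested on simulated data. Python 3.11.15, NumPy 2.4.6, pandas 2.3.3 and matplotlib 3.10.9 were used. The values of 1 laminin chain and 1 marker are not reported here, although counts, sums and medians include them.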

Additional observations from a re-analysis of the deposited data

How the results depend on the processing

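No paired analysis was possible because the table holds 1 value per condition, and for the same reason no library could be left out in turn. Median centring shifted all differences by less than 0.1 and left each count within 1.5 times. No difference past the 2-fold minimum changed sign, but small ones did: under quantile normalization ITGA5 (0.06), ITGA6 (0.02) and LAMC1 (0.10) were above Scr in CD24 KO. Removing MFAP2 or the genes listed at 0, chosen after seeing the data, left every count of members within 1.5 times. For CD24 KO against Scr, the 3 members higher became 1 with a pseudocount of 5 or with 1 FPKM required in every column, and 8 at 1.5-fold, and the 2 lower became 1 with a pseudocount of 5 and 5 at 1.5-fold. The 3 partner genes higher became 6 with a pseudocount of 0.1, 1 with a pseudocount of 5 or with 1 FPKM in every column, and 10 at 1.5-fold, where 7 were lower in place of 3. Quantile normalization moved the integrin median from 0.10 to 0.25 and the laminin median from -0.17 to -0.0603. For RCC2 KO against Scr, 2 members were lower at 1.5-fold in place of 0, 2 partner genes were higher and 3 lower at 1.5-fold, and 1 partner gene was higher and 1 lower with a pseudocount of 0.1. Without a filter the integrin median was -0.0733, the laminin median -0.0199 and the collagen median -0.0054. The laminin median was -0.0764 with a pseudocount of 5 and -0.0816 with 1 FPKM in every column, and the collagen median was -0.044 under quantile normalization. For RCC2 KO against CD24 KO, the 1 member higher became 3 with a pseudocount of 0.1, 0 with a pseudocount of 5, 2 under quantile normalization and 5 at 1.5-fold, and the 4 lower became 1 with a pseudocount of 5, 2 with 1 FPKM in every column and 11 at 1.5-fold. The 3 partner genes higher became 6 at 1.5-fold, and the 8 lower became 2 with a pseudocount of 5, 5 with 1 FPKM in every column and 5 under quantile normalization. The integrin median was -0.26 under quantile normalization, the laminin median changed sign to -0.0046 with 1 FPKM in every column and the collagen median 0.0000 without a filter. With a pseudocount of 5, ITGB4 (0.76), ITGB5 (-0.90) and COL4A5 (0.40) were under the 2-fold minimum in CD24 KO against Scr, and ITGB3 reached 1.02 with a pseudocount of 0.1. In RCC2 KO against CD24 KO, a pseudocount of 5 did the same to COL18A1 (0.83), ITGA1 (-0.61) and ITGB3 (-0.48), and ITGB1 reached -1.11 under quantile normalization, where ITGB3 was at -0.89. A larger pseudocount shrinks low genes by construction, and a filter on every column drops genes low in one of them; the cause of the other shifts was not tested.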

Other observations

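The genes around MFAP2 were described as values. Within 500 kb on either side the table lists 24 other genes, of which 7 were compared. In the column labelled CD24 KO none of these 7 was at least 2-fold higher than Scr, and 1 was at least 2-fold lower, RCC2, with a difference of -1.36. The other differences lay between -0.47 and 0.89, the highest of them for NBPF1, at 8.32 FPKM in Scr and 16.2 FPKM in the column labelled CD24 KO. ATP13A2, the nearest of these genes, was at 9.75 FPKM in Scr and in the column labelled CD24 KO. RCC2 begins 425 kb from the end of MFAP2 in the coordinates of the table.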
